A study of Mus musculus with 12 samples.

Results

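Vegfa and 9 genes of vessel endothelium were followed through the anterior hard palate of mouse embryos, to ask whether vessel genes follow the level of the vessel growth factor made in that tissue. The 10 genes (Vegfa, Flt1, Kdr, Tek, Tie1, Pecam1, Cdh5, Emcn, Plvap and Eng) were taken by symbol from the 24391 genes of each library's raw count table, and each symbol was found there. They had been chosen by name, as the growth factor, its receptors, the TIE receptors and surface proteins of endothelium. That choice was made with earlier results of these data known. The 12 libraries of total RNA came from dissected anterior palates of C57BL/6 mice and form 4 groups of 3. Controls labelled wild type and mutants labelled Shox2Cre; R26RFgf8 were each taken at embryonic day 14.5 (E14.5) and embryonic day 16.5 (E16.5). In the mutants, Cre recombinase expressed from Shox2, a gene active in anterior palate mesenchyme, switches on an Fgf8 transgene at the Rosa26 locus, so that the growth factor FGF8 is made in cells that normally lack it. The labels name neither Cre nor the transgene in the controls. They do not say whether a sample was 1 embryo or a pool, so the p-values measure the spread between these samples.

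VEGFA is a secreted protein that osteoblasts, epithelia, chondrocytes and many other cells release, and it drives the sprouting and survival of blood vessels. It acts on endothelial cells through the receptor tyrosine kinases FLT1 (VEGFR1, which also acts as a decoy) and KDR (VEGFR2, the main signalling receptor). TEK, also called TIE2, binds the angiopoietins, and its relative TIE1 modulates that signal. PECAM1 and CDH5 (VE-cadherin) hold endothelial cells together, EMCN (endomucin) is a sialomucin of capillaries and veins, PLVAP forms the diaphragms of fenestrae and caveolae, and ENG (endoglin) is a co-receptor for BMP9 and TGF-beta. In membranous bone, such as that of the palate, vessels and bone form side by side, and oxygen shortage is a known inducer of Vegfa.

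The promoters of Vegfa and of 3 endothelial genes are shown. Of the endothelial promoters matched, these 3 held the most copies of the sequence marked in capitals. Each sequence is the 250 bases before the RefSeq start site in the mouse build GRCm38.p6, written 5′ to 3′ on the gene's strand. They were read at chr17:46032378-46032627 (minus strand, before the more upstream of the Vegfa starts in RefSeq), chr5:147726012-147726261 (Flt1, minus), chr3:137340828-137341077 (Emcn, plus) and chr2:32646345-32646594 (Eng, plus). Capitals mark AGGAAG or its reverse complement CTTCCT, a form of the sequence recognised by ETS factors, the transcription factor family tied to endothelial genes.
Vegfa: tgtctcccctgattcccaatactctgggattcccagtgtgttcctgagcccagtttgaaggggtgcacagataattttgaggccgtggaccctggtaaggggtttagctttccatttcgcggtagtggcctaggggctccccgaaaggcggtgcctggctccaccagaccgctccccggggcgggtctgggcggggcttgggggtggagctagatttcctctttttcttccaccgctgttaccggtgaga
Flt1: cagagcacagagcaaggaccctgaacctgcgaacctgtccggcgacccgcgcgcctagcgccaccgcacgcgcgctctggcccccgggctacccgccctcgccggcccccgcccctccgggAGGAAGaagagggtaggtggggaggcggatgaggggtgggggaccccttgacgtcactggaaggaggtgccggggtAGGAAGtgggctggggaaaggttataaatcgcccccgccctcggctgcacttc
Emcn: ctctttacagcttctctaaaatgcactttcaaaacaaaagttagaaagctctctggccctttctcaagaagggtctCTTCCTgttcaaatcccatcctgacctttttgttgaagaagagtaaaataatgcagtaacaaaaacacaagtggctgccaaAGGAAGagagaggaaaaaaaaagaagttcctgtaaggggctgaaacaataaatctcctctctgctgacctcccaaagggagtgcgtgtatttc
Eng: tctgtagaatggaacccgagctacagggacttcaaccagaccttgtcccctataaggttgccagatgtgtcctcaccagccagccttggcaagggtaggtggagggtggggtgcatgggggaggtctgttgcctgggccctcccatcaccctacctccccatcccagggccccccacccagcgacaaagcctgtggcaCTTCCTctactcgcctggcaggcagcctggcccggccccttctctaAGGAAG
RefSeq promoters were matched for 7 of the 10 genes (not Pecam1, Cdh5 or Plvap), and both strands were searched. AGGAAG was found in 4 of the 7 (Flt1, Tie1, Emcn and Eng) and in 29.2% of the 27025 promoters in the table. Flt1, Emcn and Eng held 2 copies each and Tie1 held 1, while Vegfa, Kdr and Tek held 0. The shorter ETS core GGAA, which AGGAAG contains, was in 7 of 7 and in 93.4% of all promoters. ACGTG, a form of the core of the hypoxia response element, was in 0 of the 7 windows and in 16.5% of all promoters. GCGTG, another form of that core, was not counted, so these values do not cover it. GCGTG or its reverse complement CACGC can be read in the windows of Flt1, Kdr and Emcn. These matches describe the letters in the window and no more.

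Total counts per library ranged from 76417891 to 125996587, and the 10 genes held between 922 and 20510 raw counts in any library. Fgf8, the gene switched on in the mutants, was at 0.316 ± 0.0938 CPM (counts scaled to equal library size; mean ± SD, n = 3, as throughout) in E14.5 controls and 10.8 ± 0.275 in E14.5 mutants. At E16.5 it was at 0.383 ± 0.11 CPM in controls and 16.1 ± 1.93 in mutants. Shox2, whose locus drives Cre, was at 179 ± 17.3 and 213 ± 16.8 CPM in E14.5 controls and mutants and at 90.6 ± 5.93 and 140 ± 22.9 CPM in those of E16.5. Libraries 1 and 3 of the E16.5 mutants stood apart through genes of neural retina: the summed level of 5 retina markers was 124 CPM in library 1 and 73.1 in library 3, against 13.2 in library 2 and 27.5 to 31.3 in the controls. A list of 10 neuron markers showed the same order, at 285, 53.6 and 170 CPM in mutants 1, 2 and 3 and 51.1 to 54.9 CPM in controls. The 5 genes used to read embryo sex also moved with the groups: 4 genes of the Y chromosome were higher and Xist lower in mutants at E14.5. The reverse held at E16.5. Every library held both, with Xist at 341 CPM or more and the Y gene Ddx3y at 14.4 CPM or more. Each sample thus held RNA of both sexes, in parts that were not measured. The parts of retina and nerve in the results were not tested.

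At E14.5, no difference in Vegfa between genotypes was detected beyond the spread of its libraries. Its level was 80.1, 88.1 and 77.9 CPM in the 3 controls and 79.8, 107 and 85.1 CPM in the 3 mutants. Mutant 2 was the highest of the 6 libraries, mutants 1 and 3 lay inside the control range, and the groups overlapped. The log2 fold change of mutants over controls was 0.15 ± 0.10 (SE, n = 3 per group), with an adjusted p of 0.425 in edgeR's quasi-likelihood test, adjusted over all genes by Benjamini-Hochberg as for every adjusted p below. A call means an adjusted p under 0.05. In the authors' deposited table the log2 fold change of Vegfa at E14.5 was 0.13 with an adjusted p of 0.442.

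Of the 9 endothelial genes, 6 fell in E14.5 mutants and 0 rose, while 4.57% of all tested genes were called lower and 2.95% higher in this comparison. The median log2 fold change of the 9 was -0.32, a level 0.802 times that of controls, beside a median of 0.01 over all genes. For 8 of the 9, every mutant library was below every control library, a separation that 14% of all tested genes showed in that direction. In bulk tissue, fewer endothelial cells and less RNA per endothelial cell cannot be told apart. The summed level of 10 macrophage markers was 116 to 128 CPM in controls and 78.4 to 108 CPM in mutants, with 2 of the 10 called lower and 0 higher. Xist, which is expressed from the inactive X chromosome of female cells, fell from 780 ± 76.9 to 486 ± 41 CPM, and 4 genes of the Y chromosome rose. The parts of macrophages and of embryo sex in the result were not tested.

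Both VEGF receptors fell at E14.5. Flt1 was at 33.2, 30.5 and 32.5 CPM in controls and 25.3, 24.2 and 26.8 CPM in mutants (log2 fold change -0.34 ± 0.07, adjusted p 0.0175). Kdr was at 95.2, 90.9 and 97.4 CPM in controls and 71.2, 76.9 and 79.4 CPM in mutants (-0.32 ± 0.06, adjusted p 0.0107). In neither gene did the groups overlap, and the lowest control stood above the highest mutant by more than the spread within either group. Of the TIE receptors, Tie1 fell: its controls were at 83.8, 79.4 and 83.1 CPM and its mutants at 60.3, 66.7 and 65.3 CPM (-0.36 ± 0.06, adjusted p 0.00541). The 3 controls of Tek were at 39.5, 38.8 and 39.9 CPM and its mutants at 34.3, 34.0 and 35.3 CPM (-0.19 ± 0.06, adjusted p 0.0771). All 3 Tek mutants lay below all 3 controls by a narrow but clean margin, without a call.

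Among the junction and surface proteins, Cdh5 was at 168, 160 and 190 CPM in controls and 127, 129 and 148 CPM in mutants (-0.36 ± 0.08, adjusted p 0.0278). Replicate 3 was the highest library of both groups. Emcn was at 36.2, 33.9 and 31.6 CPM in controls and 27.0, 26.2 and 25.2 CPM in mutants (-0.37 ± 0.07, adjusted p 0.0113). Pecam1 was at 102, 95.9 and 94.5 CPM in controls and 85.2, 84.1 and 82.3 CPM in mutants (-0.21 ± 0.05, adjusted p 0.0394). These 3 genes fell, and their groups did not overlap. Plvap, at 54.6, 54.8 and 60.3 CPM in controls and 45.5, 49.8 and 49.7 CPM in mutants, was not called (-0.23 ± 0.07, adjusted p 0.0693), although its groups did not overlap either. Eng was the single endothelial gene whose groups overlapped, with controls at 74.5, 72.6 and 79.1 CPM and mutants at 61.0, 72.9 and 67.2 CPM (-0.17 ± 0.07, adjusted p 0.192), mutant 2 lying above control 2.

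The number of endothelial genes called lower at E14.5 depended on the libraries in the fit. It was 3 without control 1, 3 without control 3, 2 without mutant 1 and 3 without mutant 2, and 1 (Tie1) when all 12 libraries shared 1 fit, while each of the 9 stayed below 0 in all 16 alternatives. The authors' deposited table, from their own fit, gave an adjusted p under 0.05 and a lower level for 8 of the 9, all but Eng.

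**Figure D1:**
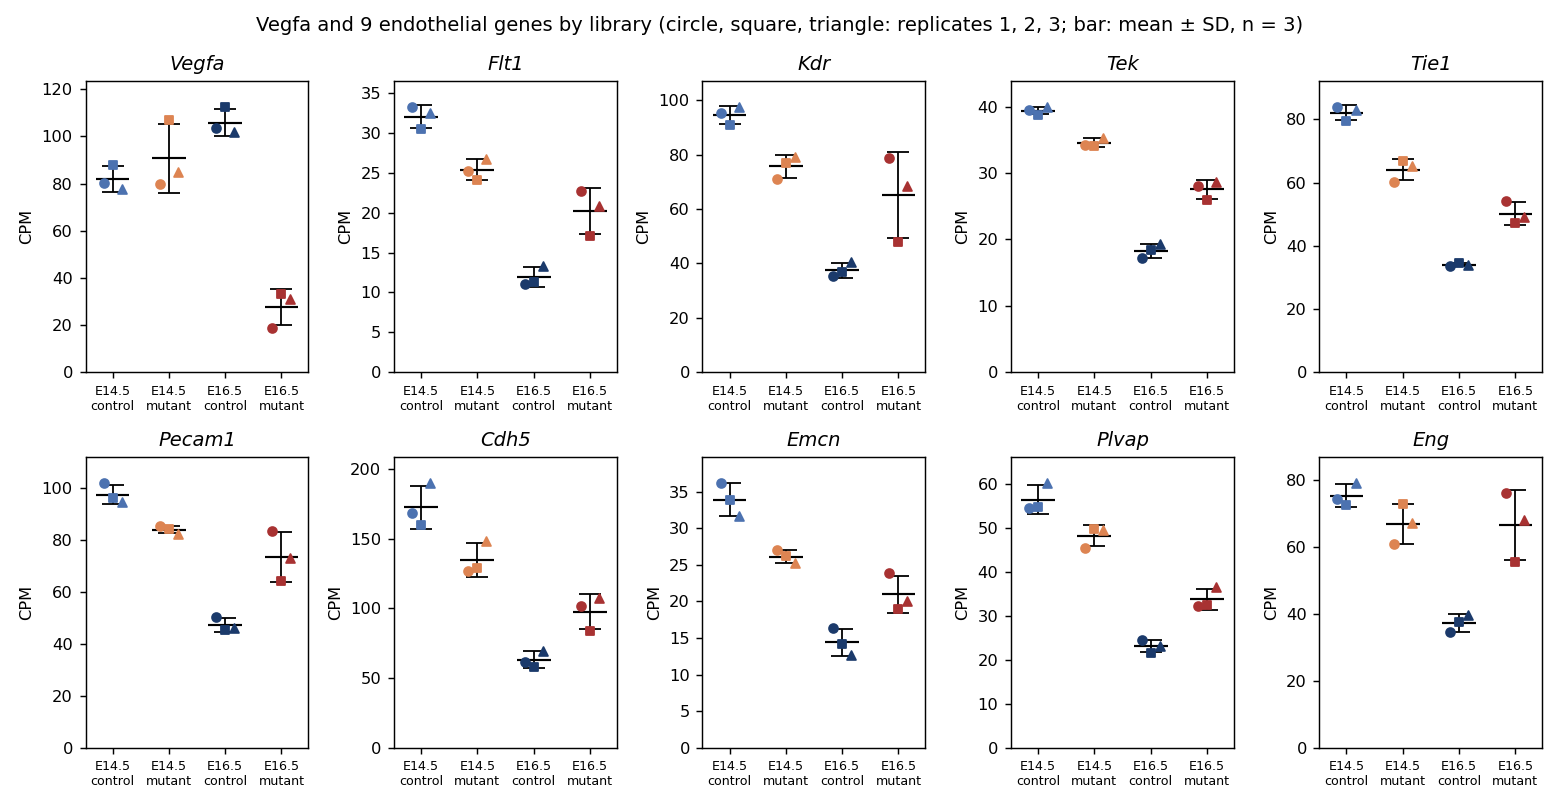
Level of each gene in CPM (vertical axis, linear and starting at 0) in the 4 groups; each point is 1 library (circle, square and triangle for replicates 1, 2 and 3) and the bars are the mean and SD of 3. In all 9 endothelial panels the E16.5 controls are lowest and the E14.5 controls highest, and in the Vegfa panel the E16.5 mutants are lowest.

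At E16.5, Vegfa fell 3.79-fold in mutants while all 9 endothelial genes rose. Vegfa was at 103.4, 112 and 102 CPM in controls and 18.7, 33.1 and 31.1 CPM in mutants, means of 106 ± 5.72 and 27.6 ± 7.81 CPM. Every mutant was far below every control, and mutant 1 was the lowest library of the series, 5.66-fold under the control mean against 3.2-fold and 3.4-fold for mutants 2 and 3. The log2 fold change was -1.92 ± 0.18 (adjusted p 0.000123). It lay between -2.07 and -1.67 and was called in all 17 alternatives. The authors' deposited table gave -1.82 with an adjusted p of 3.26e-27.

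All 9 endothelial genes were called higher in E16.5 mutants, where 12.2% of all tested genes were called higher and 15.7% lower. Their log2 fold changes ran from 0.57 to 0.86 with a median of 0.65, a level 1.57 times that of controls, beside a median of 0.01 over all genes. For 9 of 9, the lowest mutant library exceeded the highest control, as for 18.3% of all tested genes. The 9 also had an adjusted p under 0.05 and a higher level in the authors' deposited table.

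The VEGF receptors rose in the tissue where their ligand's transcript fell. Flt1 was at 11.01, 11.3 and 13.3 CPM in E16.5 controls and 22.7, 17.1 and 20.9 CPM in mutants (log2 fold change 0.79 ± 0.13, adjusted p 0.00265). Kdr was at 35.2, 36.8 and 40.4 CPM in controls and 79.0, 47.8 and 68.5 CPM in mutants (0.83 ± 0.17, adjusted p 0.00775). Kdr had the widest spread of the 9 among mutants (SD 15.9 CPM), in the order of the retina marker sum (library 1, then 3, then 2); in library 2, where that sum was below the controls, Kdr was 1.28 times the control mean and still above each control. Of the TIE receptors, Tek was at 17.2, 18.4 and 19.3 CPM in controls and 28.0, 25.9 and 28.7 CPM in mutants (0.62 ± 0.08, adjusted p 0.000867). Tie1, at 33.6, 34.5 and 33.8 CPM in controls, was at 54.2, 47.3 and 48.9 CPM in mutants (0.59 ± 0.08, adjusted p 0.000782). Mutant libraries of both TIE receptors lay close together and clear of the controls.

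Cdh5 was at 61.8, 58.1 and 69.7 CPM in E16.5 controls and 102, 83.7 and 107 CPM in mutants (0.65 ± 0.11, adjusted p 0.00298). Pecam1 was at 50.2, 45.3 and 45.8 CPM in controls and 83.2, 64.1 and 72.8 CPM in mutants (0.66 ± 0.11, adjusted p 0.00228). Both junction proteins rose with no overlap between groups, and mutant 2 was the lowest mutant in each. Emcn was at 16.3, 14.2 and 12.6 CPM in controls and 23.9, 18.9 and 20.04 CPM in mutants (0.57 ± 0.13, adjusted p 0.0136), the narrowest margin of the 9 between the highest control and the lowest mutant in CPM. Its call was lost without control 2 (0.56, adjusted p 0.0505). Plvap was at 24.5, 21.7 and 23.3 CPM in controls and 32.3, 32.6 and 36.6 CPM in mutants (0.57 ± 0.08, adjusted p 0.00133). Eng, not called at E14.5, had the largest log2 fold change of the 9 at E16.5, with controls at 34.6, 37.5 and 39.8 CPM and mutants at 76.2, 55.6 and 68.2 CPM (0.86 ± 0.12, adjusted p 0.00112).

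Mutant library 1 was the highest of the 3 E16.5 mutants in 6 of the 9 endothelial genes and library 3 in the other 3, while library 2 was lowest in 8. The median fold of the 9 over the control mean was 1.66 in library 1, 1.39 in library 2 and 1.58 in library 3. Library 2 had a retina sum below the controls and a neuron sum within their range. It was above every control in 9 of 9 genes, which already follows from the separation of the groups given above. Fitted without mutants 1 and 3, Kdr had a log2 fold change of 0.36 and Emcn of 0.40, against 0.83 and 0.57 with them. That fit assumes that library 2 varies like the controls. The 10 macrophage markers summed to 166 to 172 CPM in controls and 149 to 153 CPM in mutants, with 0 called higher and 1 lower. Xist rose from 404 ± 71.4 to 898 ± 13.4 CPM at E16.5 and 4 genes of the Y chromosome fell, so that the sex markers, like the endothelial genes, changed direction between the ages. The parts of macrophages and of embryo sex in the result were not tested.

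**Figure D2:**
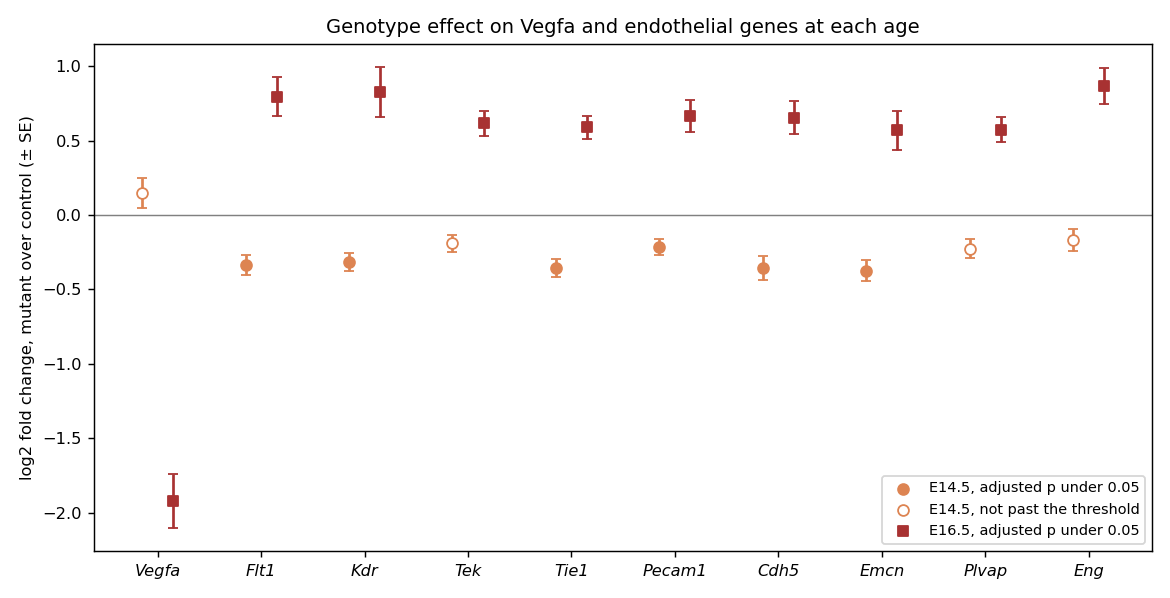
Log2 fold change of mutants over controls (vertical axis, ± SE) for each gene at E14.5 (circles, open where the adjusted p was not under 0.05) and E16.5 (squares). The 9 endothelial genes lie below 0 at E14.5 and between 0.57 and 0.86 at E16.5, while Vegfa lies at 0.15 and then -1.92.

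The change of the genotype effect between ages was tested as an interaction in 1 fit over the 12 libraries. The effect on Vegfa was lower at E16.5 than at E14.5 by a log2 difference of -2.09 (adjusted p 8.94e-05). The effect on all 9 endothelial genes was higher at E16.5, by 0.77 (Plvap) to 1.12 (Kdr) on the log2 scale, with a median of 0.92. For this difference 9.97% of all tested genes were called higher and 12.4% lower. The smallest adjusted p among the 9 was 2.32e-05 for Tie1, and the largest was 0.00127 for Kdr. The 9 endothelial genes and Vegfa were called in all 22 alternatives.

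Between E14.5 and E16.5 the 9 endothelial genes fell in controls, by log2 changes from -1.45 to -1.01 with a median of -1.27, to 0.414 times the E14.5 level, where 32.1% of all tested genes were called lower. Every E16.5 control was below every E14.5 control in 9 of 9, as in 35.2% of all tested genes. Vegfa moved the other way in controls without a call, from 82.0 ± 5.37 to 106 ± 5.72 CPM (log2 change 0.37 ± 0.17, adjusted p 0.0701). All 3 of its E16.5 controls were above all 3 of its E14.5 controls, as in 36.8% of all tested genes. The 6 control libraries fitted alone gave an adjusted p of 0.000869. With all 12 libraries, the call was also made by DESeq2 (adjusted p 0.0444), by limma-voom (0.0486), with a filter of 5 CPM in 3 libraries (0.0456) and with the replicate block (0.0179).

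In mutants the same interval showed Vegfa falling from 90.7 ± 14.5 to 27.6 ± 7.81 CPM (log2 change -1.72 ± 0.17, adjusted p 3.37e-06). Of the endothelial genes 6 of 9 fell, where 24.4% of all tested genes were called lower, and the median of the 9 was -0.33. Kdr (adjusted p 0.193), Pecam1 (0.0643) and Eng (0.958) were not called, and their E14.5 and E16.5 mutants overlapped. The calls of Flt1 and Emcn were lost when E14.5 mutant 1 or 3 or E16.5 mutant 2 or 3 was left out (adjusted p 0.0566 to 0.146), and that of Emcn also without control 2 of either age or E14.5 mutant 2 (0.0545 to 0.0877). Both were also lost with replicates 1 and 2 alone (0.137 for Flt1 and 0.114 for Emcn). Pecam1 was called with the replicate block (0.0104) and with a term for replicate 3 (0.0478). Without E16.5 mutant 1, Kdr (adjusted p 0.0272) and Pecam1 (0.00759) were called lower too. Eng was at 67.0 ± 5.98 CPM in E14.5 mutants and 66.6 ± 10.4 CPM in E16.5 mutants. These comparisons across age use the same libraries as those between genotypes and are no separate evidence.

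The 4 group means of all 9 endothelial genes stood in 1 order: E14.5 control, E14.5 mutant, E16.5 mutant and E16.5 control, from highest to lowest, as in 14.6% of the 17550 genes tested. The middle pair of that order, the mutants of both ages, was not separated by a call for Kdr, Pecam1 and Eng, nor the highest pair for Tek, Plvap and Eng. The order of Vegfa was E16.5 control, E14.5 mutant, E14.5 control and E16.5 mutant. Neither E14.5 mutants nor E16.5 controls were separated from E14.5 controls by a call for Vegfa, while E16.5 mutants were below both E16.5 controls and E14.5 mutants. E16.5 mutants stood at 0.337 times the E14.5 control mean for Vegfa, and at 0.566 (Cdh5) to 0.884 times (Eng) for the endothelial genes.

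**Figure D3:**
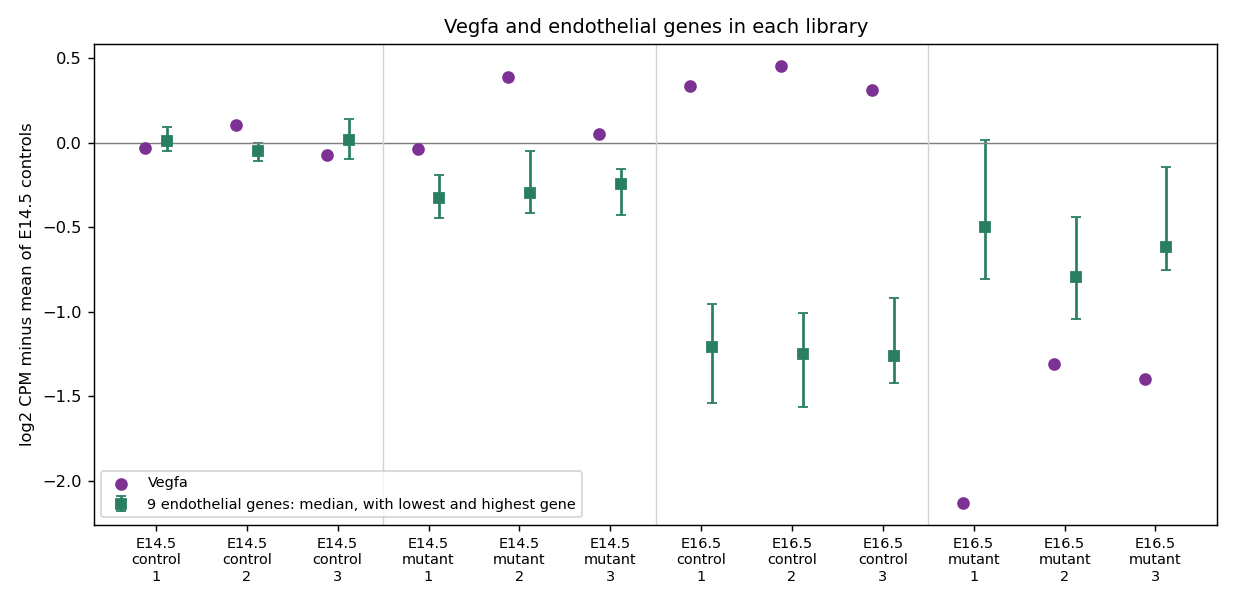
Log2 CPM minus the mean of the E14.5 controls (vertical axis) in each of the 12 libraries, for Vegfa (circles) and for the median of the 9 endothelial genes (squares, with lines from the lowest to the highest gene). In the E16.5 controls Vegfa lies at 0.31 to 0.46 and the endothelial median at -1.26 to -1.21, and in the E16.5 mutants Vegfa lies at -2.13 to -1.31 and the endothelial median at -0.79 to -0.50.

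Relative to the E14.5 controls, Vegfa was higher and the endothelial median lower in each of the 3 E16.5 controls, and both were lower in each of the 3 E16.5 mutants. The 3 E16.5 controls had a Vegfa log2 level of 0.34, 0.46 and 0.31 and an endothelial median of -1.21, -1.25 and -1.26. The 3 E16.5 mutants had a Vegfa level of -2.13, -1.31 and -1.40 and an endothelial median of -0.50, -0.79 and -0.62. In the E16.5 mutants the library with the lowest Vegfa had the highest endothelial median and the library with the highest Vegfa the lowest. Over mutants 1, 2 and 3, the summed retina markers were at 124, 13.2 and 73.1 CPM, the neuron markers at 285, 53.6 and 170 CPM and the epithelial markers at 6724, 11460 and 9235 CPM. The endothelial medians thus stood in the order of the retina and neuron sums and Vegfa in that of the epithelial sum, and the parts of these were not tested. At E14.5, mutant 2 had the highest Vegfa level (0.39) and an endothelial median (-0.30) between those of mutant 1 (-0.33) and mutant 3 (-0.24). The 12 libraries fall into 4 separate groups, so no correlation across them is given.

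Genes were also ranked by the distance of their centred log2 CPM from that of Vegfa or Cdh5 over the 12 libraries. The distance was the root mean square of the difference, among 13095 genes above a mean log2 CPM of 1. It was not scaled by the size of a gene's changes, so a gene with large changes lies far from most others. The closest genes to Cdh5 were Emilin1 (0.0654), an extracellular matrix glycoprotein, Flt4 (0.069), the VEGF-C receptor, Sox7 (0.0854), a transcription factor of endothelium, Aplnr (0.0903), the apelin receptor, and Snx30 (0.091). Of the other endothelial genes, Flt1 ranked 8, Plvap 17, Tie1 41, Kdr 63, Tek 104, Emcn 268, Pecam1 342 and Eng 712, and Vegfa ranked 11247. The closest genes to Vegfa lay much farther off: Scn4b (0.294), a sodium channel subunit, Shisa8 (0.437), Vit (0.46), Tgm2 (0.468), a transglutaminase, and Cdh17 (0.491), a cadherin. Shisa8 was at 7.02 ± 0.83 CPM in E14.5 controls, 7.95 ± 1.54 in E14.5 mutants, 13.8 ± 1.29 in E16.5 controls and 4.23 ± 0.459 in E16.5 mutants. At E14.5 the means of Vegfa, Scn4b and Shisa8 were higher in mutants than in controls. Those of Vit (17.3 CPM in controls and 9.29 in mutants), Tgm2 (81.2 and 60.8) and Cdh17 (3.23 and 3.06) were lower.

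The other ligands of the family were tested beside Vegfa. For this and each list below, 2.95% of all tested genes were called higher and 4.57% lower at E14.5. At E16.5 these shares were 12.2% and 15.7%. Of 4 tested (Vegfb, Vegfc, Pgf and Figf, the gene of VEGF-D), 0 were called at E14.5 by edgeR, by DESeq2 or at an unadjusted p under 0.05, and at E16.5 2 rose and 0 fell. Vegfb rose from 27.3 ± 1.8 to 34.8 ± 2.57 CPM (log2 fold change 0.37, adjusted p 0.0107), and Vegfc, the ligand of lymphatic growth, from 7.01 ± 0.399 to 10.3 ± 1.91 CPM (0.59, adjusted p 0.0212). Pgf (0.14, adjusted p 0.626) and Figf (-0.44, adjusted p 0.092) were not called. With the replicate number as a block, Figf was called lower (-0.43, adjusted p 0.0487), as it was by DESeq2 (-0.43, adjusted p 0.0489). Without E16.5 mutants 1 and 3, 0 of the 4 were called higher, and 2 were higher at an unadjusted p under 0.05.

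The receptors beyond FLT1 and KDR moved unequally. Flt4 fell at E14.5 (34.2 ± 2.04 against 27.6 ± 2.01 CPM, log2 fold change -0.31, adjusted p 0.0365) and rose at E16.5 (13.4 ± 0.579 against 19.95 ± 1.52 CPM, 0.60, adjusted p 0.00156), as the endothelial genes did. Nrp2, a neuropilin co-receptor of lymphatic and venous endothelium that mesenchyme and nerve also express, fell at E14.5 from 388 ± 51 to 250 ± 14.3 CPM (-0.64, adjusted p 0.00258) and at E16.5 was at 105 ± 9.45 CPM in controls and 104 ± 18.1 CPM in mutants (0.01, adjusted p 0.981). Nrp1, the co-receptor of VEGFA, was not called at E14.5 (0.14, adjusted p 0.386) and rose at E16.5 from 103 ± 12.2 to 165 ± 34.5 CPM (0.70, adjusted p 0.012). Without E16.5 mutants 1 and 3, 1 of these 3 was called higher.

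Among 4 partners of the angiopoietin pathway and of ENG, 2 fell at E14.5, and at E16.5 3 rose and 1 fell. Angpt1, the activating ligand of TEK, which mesenchyme and mural cells make, fell at both ages: from 156 ± 7.43 to 111 ± 6.03 CPM at E14.5 (-0.49, adjusted p 0.000988) and from 58.3 ± 2.37 to 44.8 ± 5.69 CPM at E16.5 (-0.35, adjusted p 0.0326). Angpt2, the context-dependent antagonist made by endothelium, was not called at E14.5 and rose at E16.5 from 8.10 ± 0.852 to 11.4 ± 0.659 CPM (0.51, adjusted p 0.0115). Ptprb, the phosphatase that opposes TEK, fell at E14.5 (-0.37, adjusted p 0.0399) and rose at E16.5 (0.73, adjusted p 0.00758). Acvrl1, the kinase receptor that acts with ENG, was not called at E14.5 (0.25, adjusted p 0.078) and rose at E16.5 from 36.2 ± 2.47 to 67.7 ± 5.5 CPM (0.93, adjusted p 0.000132).

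A list of 27 further genes of endothelium was read in the same way. At E14.5, 8 fell and 0 rose, with a median of -0.26; at E16.5, 20 rose and 0 fell, with a median of 0.55. Without E16.5 mutants 1 and 3, in which retina and neuron markers were high, 7 of the 27 were called higher and 1 lower at E16.5, and 16 were higher and 2 lower at an unadjusted p under 0.05. At E14.5 Nos3, the endothelial nitric oxide synthase, fell from 19.6 ± 0.917 to 14.4 ± 0.548 CPM (-0.45, adjusted p 0.00797), and S1pr1, a sphingosine phosphate receptor, from 70.6 ± 4.31 to 55.6 ± 1.46 CPM (-0.34, adjusted p 0.00895). At E16.5 Ramp2, a part of the adrenomedullin receptor, rose from 22.1 ± 1.29 to 47.4 ± 6.19 CPM (1.13, adjusted p 0.000143), and Cldn5, a claudin of endothelial tight junctions, from 15.5 ± 0.84 to 25.3 ± 2.02 CPM (0.73, adjusted p 0.000643). Across age in controls, 23 of the 27 fell and 1 rose, where 32.1% of all tested genes were called lower. The list was drawn up with earlier results of these data known, so its direction is no separate evidence.

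Markers of vessel subtypes were mostly without a call at E14.5. Of 6 tip cell genes 1 fell at E14.5 and 4 rose at E16.5, among them Dll4, the NOTCH ligand of tip and arterial cells, from 5.02 ± 0.876 to 9.35 ± 2.58 CPM (0.93, adjusted p 0.0175), and Apln (0.45, adjusted p 0.0109). Without E16.5 mutants 1 and 3, 1 tip cell gene was called higher. Of 6 arterial genes 0 were called at E14.5 (1 by DESeq2, 2 at an unadjusted p under 0.05, each lower), and at E16.5 3 rose and 1 fell. Gja5, the gap junction protein connexin 40, rose from 4.37 ± 0.346 to 13.7 ± 1.04 CPM (1.67, adjusted p 2.38e-05), and its relative Gja4 from 5.33 ± 0.718 to 9.97 ± 1.13 CPM (0.93, adjusted p 0.00221). Bmx, a kinase of arterial endothelium that epithelium can express too, fell from 18.9 ± 0.733 to 6.07 ± 0.274 CPM (-1.61, adjusted p 9.92e-06). Of 3 venous genes 0 were called at E14.5 by edgeR or DESeq2 (1 lower at an unadjusted p under 0.05) and 2 rose at E16.5, Aplnr (0.69, adjusted p 0.0109) and Ephb4 (0.23, adjusted p 0.0449). Without those 2 libraries the E16.5 counts were 2 higher and 1 lower for arterial and 0 for venous genes.

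**Figure D4:**
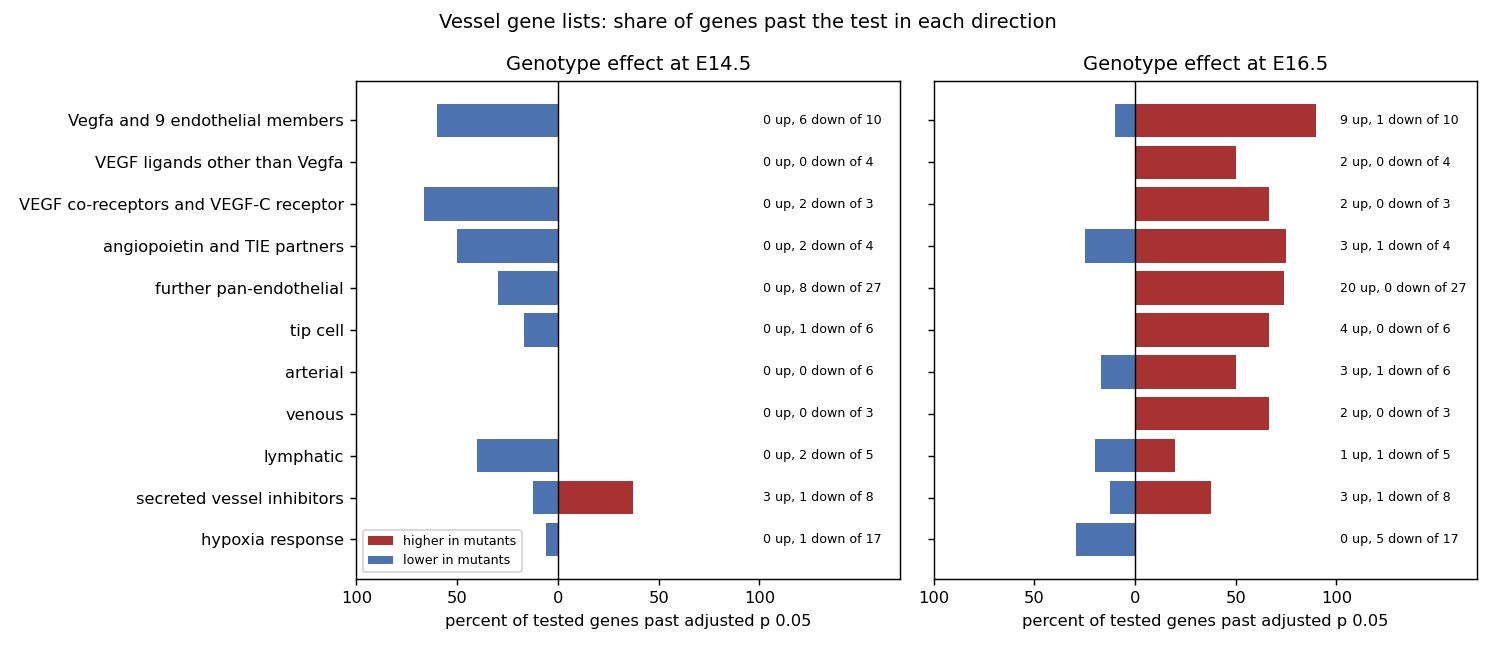
Percent of the tested genes of each list with an adjusted p under 0.05 (horizontal axis), higher in mutants to the right and lower to the left, at E14.5 and E16.5; the counts stand beside the bars. At E16.5, 20 of 27 further endothelial genes were higher and 0 lower, and 5 of 17 hypoxia response genes were lower and 0 higher. Over all tested genes, 12.2% were called higher and 15.7% lower at E16.5.

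Mural cells, the pericytes and smooth muscle around vessels, were read with 12 genes. Over all tested genes, 2.95% were called higher and 4.57% lower at E14.5, and 12.2% and 15.7% at E16.5. At E14.5, 1 rose and 3 fell of 11 tested, and at E16.5, 8 rose and 1 fell of 12 (5 and 1 without E16.5 mutants 1 and 3). Cspg4 (NG2), a pericyte proteoglycan, fell at E14.5 from 65.4 ± 3.43 to 43.0 ± 2.83 CPM (-0.60, adjusted p 0.000513) and rose at E16.5 from 40.9 ± 2.48 to 53.1 ± 5.35 CPM (0.40, adjusted p 0.0105). Pdgfrb, the receptor through which endothelium recruits mural cells and which mesenchyme shares, was not called at E14.5 and rose at E16.5 from 102 ± 5.56 to 182 ± 27.9 CPM (0.86, adjusted p 0.000984). Myh11, a myosin of mature smooth muscle, fell at both ages, at E16.5 from 20.6 ± 0.987 to 9.87 ± 0.4 CPM (-1.04, adjusted p 4.27e-05).

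Genes of the hypoxia response were read in the same way. Of 17 hypoxia response genes, 1 fell at E14.5, where 4.57% of all tested genes were called lower. At E16.5, 5 fell (Adm, Egln3, Ndrg1, Ankrd37 and Ero1l) and 0 rose, with a median of -0.15. There 15.7% of all tested genes were called lower and 12.2% higher. The 17 summed to 3335 to 3430 CPM in E16.5 controls and to 2844, 3264 and 3088 CPM in mutants 1, 2 and 3. Ankrd37 fell from 16.6 ± 1.85 to 11.1 ± 0.918 CPM (-0.55, adjusted p 0.0093), and Egln3, an oxygen-sensing hydroxylase, from 77.4 ± 3.65 to 56.8 ± 8.23 CPM (-0.43, adjusted p 0.0125).

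The cells that can release VEGFA were read with lists of markers. The 11 osteoblast markers summed to 13930 to 17180 CPM in E14.5 controls and 6320 to 7579 CPM in E14.5 mutants, where 10 fell and Vegfa was not called. At E16.5 they summed to 5315 to 6404 CPM in controls and 1028 to 1596 CPM in mutants, where 9 fell, 1 rose and Vegfa fell. The 9 cartilage markers summed to 131 to 174 CPM in controls and 329 to 350 CPM in mutants at E14.5, with 5 higher and 0 lower. At E16.5 they summed to 109 to 131 CPM in controls and 548 to 716 CPM in mutants, with 6 higher and 0 lower. Their sums did not overlap between genotypes at either age. The 8 epithelial markers summed to 945 to 1574 CPM in E14.5 controls and 1589 to 1688 CPM in E14.5 mutants, with 1 higher and 0 lower. At E16.5 they summed to 10800 to 11250 CPM in controls and 6724 to 11460 CPM in mutants, with 0 higher and 2 lower. The 6 markers of palate mesenchyme summed to 665 to 753 CPM in controls and 1564 to 1880 CPM in mutants at E14.5 (3 higher, 0 lower) and to 578 to 698 and 1424 to 2318 CPM at E16.5 (5 higher, 0 lower). The part of each in the level of Vegfa was not tested.

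No tested gene of red blood cells was called between genotypes. Of 8 erythroid genes, Hba-a1 and Hbb-b1 were listed at 0 in every library. The other 6 gave 0 calls at each age by edgeR or DESeq2 (0 at E14.5 and 1, lower, at E16.5 at an unadjusted p under 0.05), with sums of 215 to 267 CPM in E14.5 controls, 209 to 223 CPM in E14.5 mutants, 22.7 to 43.0 CPM in E16.5 controls and 26.7 to 32.9 CPM in E16.5 mutants.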

How the data were processed

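RNA of 12 anterior palate samples was measured as 3 libraries in each of 4 groups, named from the labels' genotype and age. Per the submitters' processing notes, the authors aligned reads with HISAT2 to mm9, counted them with featureCounts and compared groups with DESeq2; versions, annotation and strand setting are not given in the sources used here. The authors deposited raw counts per gene for each library. They also deposited a log2 fold change for each gene and a p-value, raw and adjusted, for each age; these are quoted only as the authors' deposited table. Another 24 columns in them, each of 1 sample's values, stayed unused.

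Counts as deposited were tested with edgeR 4.0.16 (limma 3.58.1, R 4.3.3): filterByExpr, TMM scaling, glmQLFit and glmQLFTest, with Benjamini-Hochberg adjustment over all genes tested and a call at an adjusted p under 0.05. Genotype effects were fitted on the 6 libraries of an age. Age effects and the difference of genotype effects were fitted on all 12. CPM are TMM-scaled over the 12 libraries, and log2 CPM carry a prior count of 2. The effective precision is set by 3 libraries a group at 76417891 to 125996587 counts each. The 27 genes whose symbols were turned into dates (0.251% of counts) stayed in the fit. The script was tested on simulated data. Alternatives were DESeq2 1.42.0, limma-voom, other scaling and filters, the replicate number as a block, a term for replicate 3, replicates 1 and 2 alone, other sample sets and each library left out. Promoters were read from RefSeq's table with Python 3.11.15.

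The 10 genes and all lists were chosen with earlier results of these data known. Named were the 10 genes, Fgf8 and Shox2, every gene of the first 3 pathway lists, up to 4 called genes with the smallest adjusted p of each other pathway list in each genotype comparison, up to 2 of each cell type list, and the 5 genes closest to Vegfa and to Cdh5. Adm, Ndrg1, Ero1l and the erythroid and lymphatic genes listed at 0 were named after their values were seen. Same-numbered libraries of the E16.5 groups deviated together from their group means over 17550 genes (correlations 0.105, 0.161 and 0.222 for replicates 1, 2 and 3). At E14.5 the values were 0.0193, 0.0445 and 0.16, and between the controls of the 2 ages 0.0618, 0.0981 and 0.158. Libraries of unlike number were not compared, so these values do not show whether the numbers mark pairs. The main fits used no pairing, and the replicate block is given as an alternative. Replicate 3 had the highest of the 3 correlations in each pair of groups compared (0.158 to 0.222). Its lead was wider over the 13463 genes with a mean log2 CPM above 1. There its correlations were 0.559 to 0.695, and those of replicates 1 and 2 were 0.0566 to 0.241. The labels name no batch, and whether the replicate 3 libraries shared one is not known.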

Additional observations from a re-analysis of the deposited data

Results flagged for a closer look

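The values below are the genotype effect at E16.5 minus that at E14.5 on the log2 scale. Each was picked out because the effects at the 2 ages differ by edgeR's interaction test over the 12 libraries (adjusted p under 0.05). No cause was tested. Among the 10 genes, the difference was -2.09 for Vegfa, and for the endothelial genes Flt1 (1.1), Kdr (1.12), Tek (0.781), Tie1 (0.92), Pecam1 (0.854), Cdh5 (0.984), Emcn (0.918), Plvap (0.775) and Eng (1.01). Each endothelial gene had a lower mean in mutants at E14.5 and a higher one at E16.5.

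Of the pathway partners, the effect also differed for the ligands Vegfb (0.398) and Vegfc (0.706), the co-receptor and receptor Nrp2 (0.616) and Flt4 (0.884), and Angpt2 (0.587), Ptprb (1.08) and Acvrl1 (0.656). Of the further endothelial genes named, it differed for Cldn5 (0.877), Sox7 (1), Lyl1 (0.922), Mmrn2 (1.03), Clec14a (0.753), Ramp2 (1.14), Nos3 (0.909) and S1pr1 (0.728).

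Of the subtype markers and secreted inhibitors, it differed for Apln (0.798), Dll4 (1.06), Gja4 (0.915), Gja5 (1.92) and Sox17 (0.919), for Aplnr (0.843), Lyve1 (0.98), Thbs2 (0.599) and Sema3e (1.22), and in the other direction for Bmx (-1.88). Lyve1, a receptor of lymphatic endothelium and of some macrophages, fell at E14.5 and was not called at E16.5.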

How the results depend on the processing

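The fall of Vegfa at E16.5 and all 10 differences of effect held their direction and call in the alternatives run. So did the rise of the endothelial genes at E16.5, except that Kdr and Emcn lost their calls without mutants 1 and 3 and with replicates 1 and 2 alone (adjusted p 0.0845 and 0.0939), and Emcn without control 2. The count of endothelial genes called lower at E14.5, 6 as reported, was 1 with all 12 libraries in 1 fit and 2 to 5 with 1 library left out, where fewer libraries were tested. With the replicate block, Tek (adjusted p 0.02) and Plvap (0.012) were also called lower at E14.5, and no call on the 10 genes changed at E16.5. Of the 27 further endothelial genes at E14.5, 8 were called lower as reported, 12 by DESeq2, 5 by limma-voom and 14 with the replicate block. The age effect on Vegfa in controls, 0.368 without a call, was called with DESeq2 (0.373), limma-voom (0.367), a filter of 5 CPM in 3 libraries (0.398), the replicate block (0.369) and the 6 control libraries alone (0.373). It ran from 0.325 to 0.424 with 1 library left out and was called without E16.5 mutant 1 or 2 (0.372 each). The cause was not tested.

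Some values changed sign; apart from Fgf15, none was called as reported. The age effect on Eng in mutants was 0.0502 with the 5 CPM filter, 0.00521 with replicates 1 and 2 alone and -0.091 to 0.144 with 1 library left out. Nrp2 at E16.5 was -0.00911 with limma-voom, -0.00749 with the replicate block, -0.00555 with replicates 1 and 2 alone, -0.0205 with all 12 libraries, -0.321 without mutants 1 and 3, and -0.119 to 0.137 with 1 library left out. Pgf was 0.0053 at E14.5 with replicates 1 and 2 alone (-0.178 to 0.0058 with 1 left out) and -0.00983 at E16.5 without mutants 1 and 3 (-0.00305 to 0.243). Figf at E14.5 was -0.0513 with replicates 1 and 2 alone (-0.0443 to 0.154). Without mutants 1 and 3, the difference of effects on Angpt1 was -0.0903 and the E16.5 effect on the retina gene Fgf15 was -0.401, from 5.53 with them.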

Other observations

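Secreted inhibitors of vessel growth did not move as 1 group. Of 8 such genes, 3 rose and 1 fell in mutants at each age, by edgeR's quasi-likelihood test. Sema3e, a semaphorin that repels sprouting endothelium, rose at E14.5 from 60.4 ± 1.85 to 81.0 ± 8.76 CPM (log2 difference 0.42, adjusted p 0.0083) and from 37.1 ± 2.42 to 116 ± 24.1 CPM at E16.5 (1.67, adjusted p 9.11e-05). Lect1, which encodes the cartilage protein chondromodulin, rose at E16.5 from 4.70 ± 0.674 to 10.7 ± 1.79 CPM (1.21, adjusted p 0.00115). Adamts1, a protease with antiangiogenic domains, fell at both ages, from 85.2 ± 4.01 to 59.5 ± 4.83 CPM at E14.5 (-0.52, adjusted p 0.00156) and from 74.0 ± 4.18 to 53.4 ± 5.44 CPM at E16.5 (-0.44, adjusted p 0.0081).

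Of 6 lymphatic genes, Ccl21a was listed at 0 in every library and 5 were tested. At E14.5, 2 fell, Flt4 and Lyve1. Lyve1 fell from 9.46 ± 1.1 to 5.07 ± 1.13 CPM (-0.90, adjusted p 0.00867). At E16.5, Flt4 rose and Prox1, the transcription factor of lymphatic identity that other tissues also express, fell from 9.55 ± 0.202 to 7.08 ± 0.809 CPM (-0.41, adjusted p 0.0355).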
